A study of Drosophila melanogaster with 12 samples.

Results

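The Toll pathway components described here are 9 genes, PGRP-SA, spz, Tl, Myd88, tub, pll, cact, dl and Dif. They were listed by name, with earlier results of these data known. A probe set, the group of oligonucleotides that measures a transcript, was used where the platform annotation gives it to 1 of these genes alone. This left 11 probe sets for 8 of the 9 genes, among 18769 probe sets tested and 11981 genes with a probe set of their own. Of the 8 genes, 5 had 1 probe set, and Tl, cact and dl had 2 each. PGRP-SA had none in the annotation used here and was not analysed here.

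The cells were SL2, a line from *Drosophila* embryos with features of hemocytes, the blood cells of the fly. They were given 12.5 µg/ml dsRNA for 4 days, either against Tis11 (Tis11 kd), which encodes a zinc finger protein that binds AU-rich mRNAs, or against GFP (GFP kd), a sequence the cells do not have. Each dsRNA was tested alone and with 10 µg/ml lipopolysaccharide (LPS), a bacterial surface preparation, for 4 h. Each of the 4 groups had 3 biological repeats and 1 Affymetrix Drosophila Genome 2.0 array per repeat, 12 arrays in all. All cells therefore carried a dsRNA, and there were no untreated cells. No probe set was annotated to Tis11 (0 in the annotation used here), so the knockdown was not checked on these arrays. The authors report a separate check of it by Northern blot and qPCR.

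Toll signalling is 1 of the 2 NF-κB pathways of fly immunity and also patterns the embryo. Bacterial and fungal products are recognized outside the cell, a cascade of serine proteases cleaves the cytokine Spätzle (spz), and the cleaved form binds the receptor Toll (Tl). The adaptors Myd88 and Tube (tub) and the kinase Pelle (pll) then cause the inhibitor Cactus (cact) to be degraded, which frees the NF-κB factors Dorsal (dl) and Dif to enter the nucleus. The pathway runs through cleavage, phosphorylation and degradation of proteins, none of which an array of mRNA measures. The Imd pathway, which ends at the NF-κB factor Relish (Rel), is the other arm and answers mainly to Gram-negative bacteria.

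Values are log2 signals after RMA. RMA corrects background, gives the single probes of arrays normalized together the same distribution, and then reports 1 number per probe set and array. The probe set values need not share a distribution. They ran from 2.25 to 14.01, and 38.3% of the tested probe sets had a mean of at least 6, below which signals lie near background. Of the 11 probe sets of the Toll pathway components, 9 were at 6 or higher. The medians of the 12 arrays lay between 5.05 and 5.22. All 7 measured plasmatocyte markers (macrophage-like hemocytes) were above 6, as were 2 of 4 crystal cell and 4 of 6 lamellocyte markers. None of the 4 fat body or 3 neuron markers was above 6, and their summed signals on the log2 scale were 6.78 to 7.29 and 6.96 to 7.29 across the groups. Signals of different probe sets also depend on the affinity of the probes, so levels of different genes were not ranked.

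None of the 11 probe sets of the Toll pathway components changed after LPS or Tis11 kd by the test across all probe sets, a Benjamini-Hochberg adjusted p under 0.05 in limma. The ligand gene spz came nearest, with lower values on every LPS array, and 1 probe set of dl was lower in Tis11 kd cells with LPS. The share of all probe sets that passed was itself small. For LPS it was 0.0533% in GFP kd cells, 0.0799% in Tis11 kd cells and 0.155% over both dsRNAs on all 12 arrays, and all of these were higher with LPS. For Tis11 kd it was 0% without LPS, 0% with LPS and 0% over both LPS states, and for the difference between the LPS responses of the 2 backgrounds it was 0%. The members' count of 0 in each of these 7 comparisons is therefore near the background.

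At an unadjusted limma p under 0.05 the members numbered 0 for Tis11 kd without LPS, 1 for Tis11 kd with LPS, 1 for LPS in GFP kd cells and 1 for LPS in Tis11 kd cells. The same share over all probe sets was 1.1%, 2.6%, 1.67% and 2.71%. The methods' t-test gave 0, 1, 1 and 1 members at the same threshold and 0 after adjustment in each. On all 12 arrays the members numbered 1 for LPS, 1 for Tis11 kd and 2 for the difference between LPS responses, beside 4.72%, 1.85% and 1.99% of all probe sets.

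The 3 values of one group lay outside the range of the other for 0 members for Tis11 kd without LPS (4.47% of all probe sets), 1 for Tis11 kd with LPS (9.73%), 2 for LPS in GFP kd cells (6.49%) and 1 for LPS in Tis11 kd cells (8.37%). All 6 LPS arrays lay apart from all 6 arrays without LPS for 1 member, beside 0.677% of all probe sets. The 6 Tis11 kd and 6 GFP kd arrays lay apart for 0 members, beside 0.144%.

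**Figure D1:**
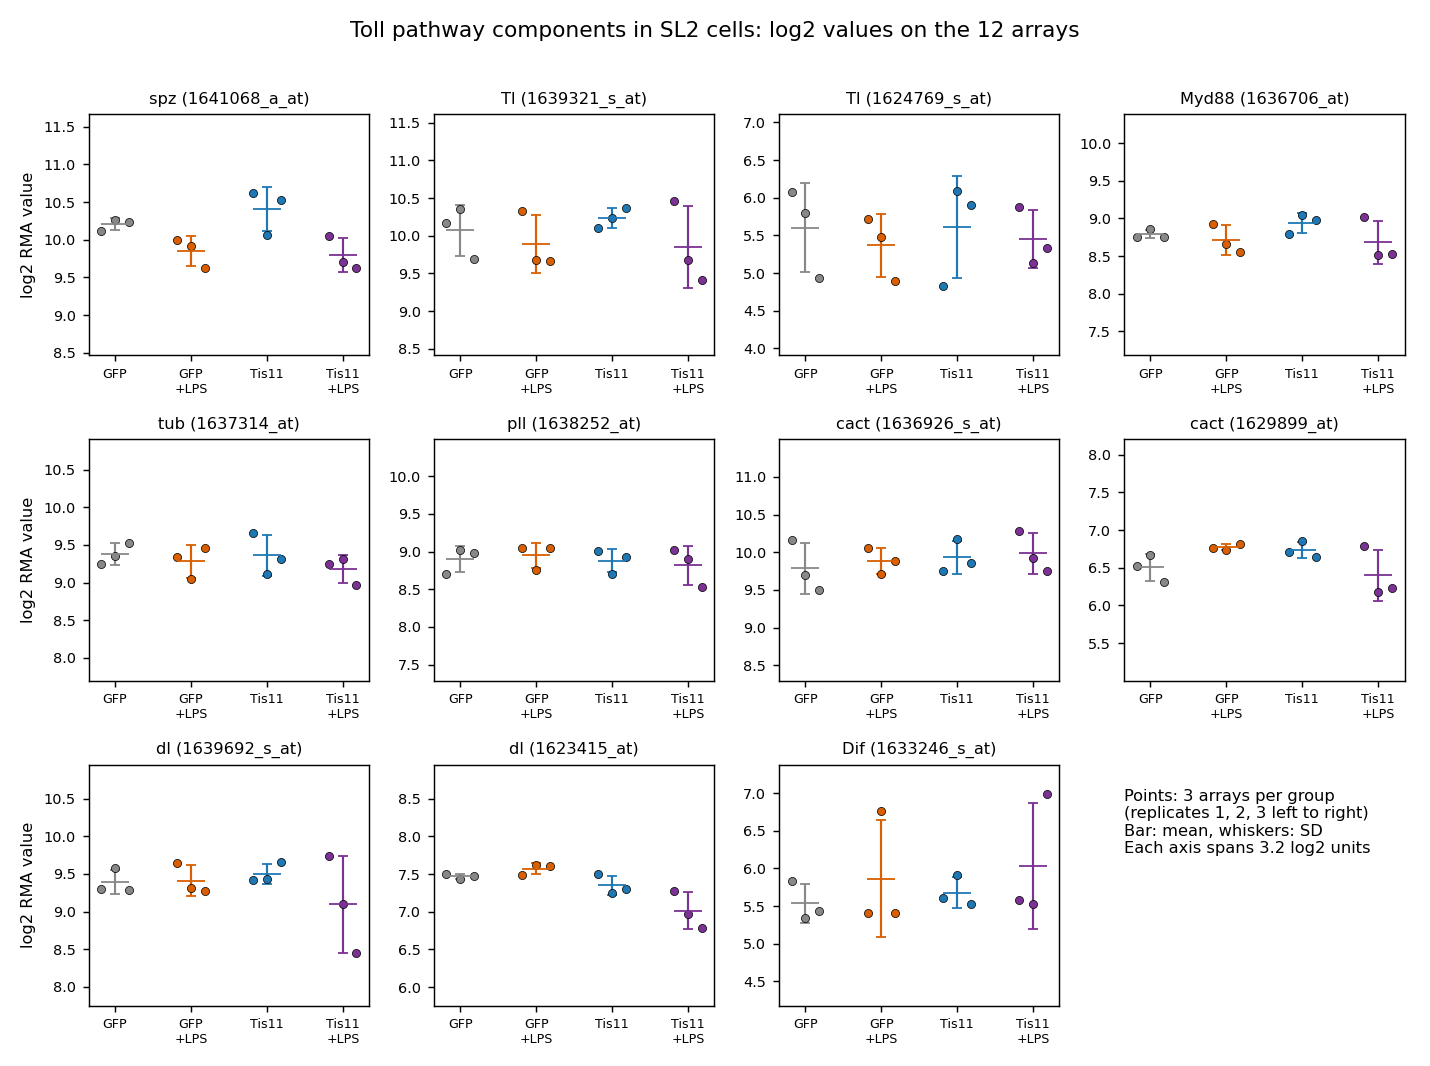
Log2 RMA values of the 11 probe sets of the Toll pathway components in the 4 groups. Points are the 3 arrays of a group, the bar is their mean and the whiskers are the SD. The spz values of the LPS groups sit below those without LPS, and Dif has 2 arrays at 6.76 and 6.99 that stand above the other 10.

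The ligand gene spz was at 10.12, 10.26 and 10.23 after GFP kd and at 10.00, 9.92 and 9.62 after GFP kd with LPS. It was at 10.62, 10.07 and 10.53 after Tis11 kd and at 10.05, 9.70 and 9.63 after Tis11 kd with LPS. In each background the 3 LPS values lay below the 3 without LPS, and over all arrays the highest LPS value of 10.05 lay just below the lowest value without LPS of 10.07. The group means were 10.21 ± 0.08 and 9.85 ± 0.20 without and with LPS in GFP kd cells, and 10.41 ± 0.30 and 9.79 ± 0.23 in Tis11 kd cells (SD, n = 3). The log2 difference with LPS was −0.36 (SE 0.12) in GFP kd cells and −0.61 (SE 0.19) in Tis11 kd cells. Over both dsRNAs it was −0.48 (SE 0.12), with a 95% interval from −0.74 to −0.23, which corresponds to 0.715 times the signal without LPS. The adjusted p from limma was 0.33, which is not past the threshold. It stayed between −0.55 and −0.42 when any 1 array was left out, with adjusted p from 0.25 to 0.80. The difference between the LPS responses of both backgrounds was −0.26 (SE 0.23, interval −0.77 to 0.26). Tis11 kd without LPS gave 0.20 (SE 0.16) and with LPS −0.05 (SE 0.16). In RNA of a whole culture, fewer cells with a transcript and less transcript per cell cannot be told apart.

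Over the 12 arrays, the 5 genes whose values followed those of spz most closely, among 6282 probe sets of 1 gene with a mean of at least 6, were ced-6, Idh3a, CG11127, su(f) and PIG-X. ced-6, which encodes an adaptor for the engulfment of dying cells, had a Pearson r of 0.97 with spz, and Idh3a, a subunit of the mitochondrial isocitrate dehydrogenase, had 0.93. CG11127 had 0.90, su(f), an mRNA 3′ end processing factor, had 0.89, and PIG-X 0.89. The arrays share groups and repeats, so these values are a description. ced-6 was at a mean of 11.11 without and 10.80 with LPS in GFP kd cells and at 11.24 and 10.84 in Tis11 kd cells. None of the 5 passed for LPS over both dsRNAs, with adjusted p from 0.21 to 0.96 in limma.

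Tl encodes the receptor, a transmembrane protein whose intracellular TIR domain recruits the adaptors. Its probe set 1639321_s_at was at 10.17, 10.35 and 9.69 after GFP kd, 10.34, 9.67 and 9.66 after GFP kd with LPS, 10.10, 10.24 and 10.36 after Tis11 kd, and 10.46, 9.68 and 9.42 after Tis11 kd with LPS. The groups overlapped in all comparisons, and the Tis11 kd arrays with LPS held both the highest and the lowest of the 12 values. LPS over both dsRNAs gave −0.28 (SE 0.19, interval −0.69 to 0.13). The other probe set, 1624769_s_at, had a mean of 5.51 over the 12 arrays, below 6, and ranged from 4.83 to 6.09 with means of 5.37 to 5.61 in the groups. Its spread between repeats (SD 0.39 to 0.68) exceeded every difference between groups, and LPS gave −0.20 (SE 0.26). The suffix _s_at marks probes that can match more than 1 transcript, and the annotation gives only Tl for both.

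The adaptors and the kinase downstream of Tl gave small differences between groups. Myd88, the TIR domain adaptor, ranged from 8.51 to 9.05 over the 12 arrays, with means of 8.79 and 8.71 without and with LPS in GFP kd cells and 8.94 and 8.68 in Tis11 kd cells. Its LPS difference over both dsRNAs was −0.16 (SE 0.10, interval −0.39 to 0.06). tub, which links Myd88 to the kinase through death domains, ranged from 8.97 to 9.66, with an LPS difference of −0.14 (SE 0.11, interval −0.38 to 0.10). pll, the kinase and homolog of mammalian IRAK, ranged from 8.53 to 9.05, with an LPS difference of −0.01 (SE 0.10, interval −0.23 to 0.22). For Tis11 kd over both LPS states the differences were 0.06 for Myd88, −0.06 for tub and −0.08 for pll, each with an SE of 0.10 to 0.11. In all 4 comparisons of 3 arrays against 3 the groups of these genes overlapped. For these genes the intervals of LPS over both dsRNAs and of Tis11 kd over both LPS states lay within 0.5 on either side of 0. Intervals of 3 arrays against 3 were wider and some went past 0.5. For LPS in Tis11 kd cells they were −0.64 to 0.14 for Myd88 and −0.59 to 0.22 for tub. For Tis11 kd with LPS it was −0.53 to 0.26 for pll.

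cact encodes the IκB protein that holds dl and Dif in the cytoplasm, and it is known as a target of the pathway that it restrains. Its probe set 1636926_s_at was at 10.16, 9.70 and 9.50 after GFP kd, 10.05, 9.72 and 9.88 after GFP kd with LPS, 9.76, 10.18 and 9.86 after Tis11 kd, and 10.28, 9.92 and 9.76 after Tis11 kd with LPS. These groups overlapped in every comparison, with an LPS difference of 0.08 (SE 0.13, interval −0.21 to 0.36). The other probe set, 1629899_at, was at 6.52, 6.68 and 6.31 after GFP kd and at 6.76, 6.74 and 6.81 after GFP kd with LPS, so its 3 LPS values lay above the others by a narrow gap. In Tis11 kd cells it was at 6.71, 6.85 and 6.64 without LPS and at 6.79, 6.18 and 6.23 with LPS, where the groups overlapped and 2 of 3 LPS values were lower. The LPS differences were 0.27 (SE 0.12) in GFP kd and −0.33 (SE 0.18) in Tis11 kd cells. The difference between them, −0.60 (SE 0.22, interval −1.09 to −0.11), had an unadjusted p of 0.020 and an adjusted p of 1.00 in limma on 12 arrays. The other probe set of the gene gave −0.04 (SE 0.27) for the same quantity, and which transcripts either probe set reads was not examined.

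dl, the NF-κB factor of the embryo that also acts in hemocytes, was measured by 2 probe sets. Its probe set 1623415_at was at 7.51, 7.44 and 7.48 after GFP kd, 7.49, 7.63 and 7.60 after GFP kd with LPS, 7.50, 7.25 and 7.31 after Tis11 kd, and 7.27, 6.98 and 6.78 after Tis11 kd with LPS. With LPS, all 3 Tis11 kd values lay below all 3 GFP kd values, while without LPS the groups overlapped. Tis11 kd gave −0.12 (SE 0.10) without LPS, −0.56 (SE 0.14, interval −0.91 to −0.22, unadjusted p = 0.007) with LPS, and −0.34 (SE 0.10, interval −0.57 to −0.12) over both states. The adjusted p from limma was 1.00 in each, and leaving out 1 array of the 6 with LPS gave −0.69 to −0.45. The difference between the LPS responses was −0.44 (SE 0.17, unadjusted p = 0.026 in limma on 12 arrays, adjusted p = 1.00).

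The other dl probe set, 1639692_s_at, gave wider spreads. It was at 9.30, 9.58 and 9.29 after GFP kd, 9.65, 9.31 and 9.27 after GFP kd with LPS, and 9.42, 9.43 and 9.65 after Tis11 kd. After Tis11 kd with LPS it was at 9.74, 9.10 and 8.45, the highest and the lowest of its 12 values among them. Tis11 kd with LPS gave −0.31 (SE 0.32), and this became 0.01 without Tis11 dsRNA + LPS replicate 3. The 2 probe sets of dl thus had Tis11 kd differences of the same sign with LPS, and neither passed. Without LPS the signs were opposite, with 1639692_s_at at 0.11 (SE 0.12). Over both LPS states 1639692_s_at gave −0.10 (SE 0.19).

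Dif is the NF-κB factor that carries most of the Toll response of the adult fat body, and 2 protein-coding genes lie between it and dl in the RefSeq annotation. Its probe set had a mean of 5.78, below 6. It was at 5.83, 5.34 and 5.43 after GFP kd, 5.41, 6.76 and 5.41 after GFP kd with LPS, 5.60, 5.91 and 5.52 after Tis11 kd, and 5.58, 5.52 and 6.99 after Tis11 kd with LPS. In each LPS group 1 array stood more than 1 unit above its other 2. The LPS difference over both dsRNAs was 0.34 (SE 0.29, interval −0.28 to 0.96), the highest of the 11 probe sets, and the groups overlapped. It was 0.14 without GFP dsRNA + LPS replicate 2 and 0.13 without Tis11 dsRNA + LPS replicate 3. Within a background its sign turned, from 0.33 to −0.12 in GFP kd cells and from 0.36 to −0.12 in Tis11 kd cells, without the same array in each.

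Several members varied between repeats together with genes outside the pathway, in arrays whose replicate numbers differ from group to group. In its deviations from the group mean, each of the 12 arrays correlated best with an array of the other dsRNA and the same LPS state (r from 0.80 to 0.93 across probe sets), and 10 of them with one of another replicate number. The labels do not tie these arrays together, so the fits took all arrays as independent. The SEs, p-values and counts of calls above therefore leave this shared variation out of account, and a missing call does not show that a gene was the same. Hml, a clotting protein gene and plasmatocyte marker, was at 8.18 on GFP kd replicate 1, 8.51 on GFP kd with LPS replicate 2, 7.92 on Tis11 kd replicate 2 and 8.04 on Tis11 kd with LPS replicate 3, and between 6.37 and 6.97 on the other 8 arrays. On those 4 arrays, 1 of each group, Dif had the highest and pll and tub the lowest value of the group. For pll these were 8.70, 8.76, 8.71 and 8.53 in the same order, below the 8.91 to 9.05 of the other 8. The 4 arrays with high Hml also held the highest eater (10.85, 10.13, 11.12 and 10.42) and He (12.29, 12.34, 12.46 and 12.16) values of each group. Pxn, srp, NimC1 and Col4a1, the other plasmatocyte markers, did not do so in every group. Summed, the plasmatocyte markers ran from 12.9 to 14.4 on the log2 scale over the groups. The arrays with the high Dif values, GFP kd with LPS replicate 2 and Tis11 kd with LPS replicate 3, also held the highest PPO1 and PPO2 values. These crystal cell markers were at 9.40 and 9.01 for PPO1 and at 10.75 and 11.26 for PPO2. lz, near background, was also highest there (4.43 and 3.73), while peb was not. The part of these repeats in the differences of Dif was not tested.

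The receptor gene 18w, a Toll family member also called Toll-2, was at 7.96 on GFP kd replicate 3, 8.05 on GFP kd with LPS replicate 3, 7.86 on Tis11 kd replicate 1 and 7.81 on Tis11 kd with LPS replicate 2, and between 4.29 and 5.20 on the other 8. The same 4 arrays held the highest tub value of each group (9.53, 9.46, 9.66 and 9.32) and the lowest of Tl probe set 1624769_s_at (4.94, 4.90, 4.83 and 5.14). Though 1 such array falls in each group, an equal count does not make its effect on the group means equal. Its part in the differences between groups was not tested. Hml, 18w and the crystal cell markers were singled out here after their values were seen. Many other probe sets followed Hml or 18w over the 12 arrays as closely. A Pearson r with Hml as high as for Dif (0.82) was held by 8.61% of the 7194 whose average signal reached 6. An r as low as for pll (−0.86) and tub (−0.83) was held by 5.05% and 7.20%. With 18w the shares were 11.9% for tub (0.79) and 3.75% for Tl 1624769_s_at (−0.87).

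**Figure D2:**
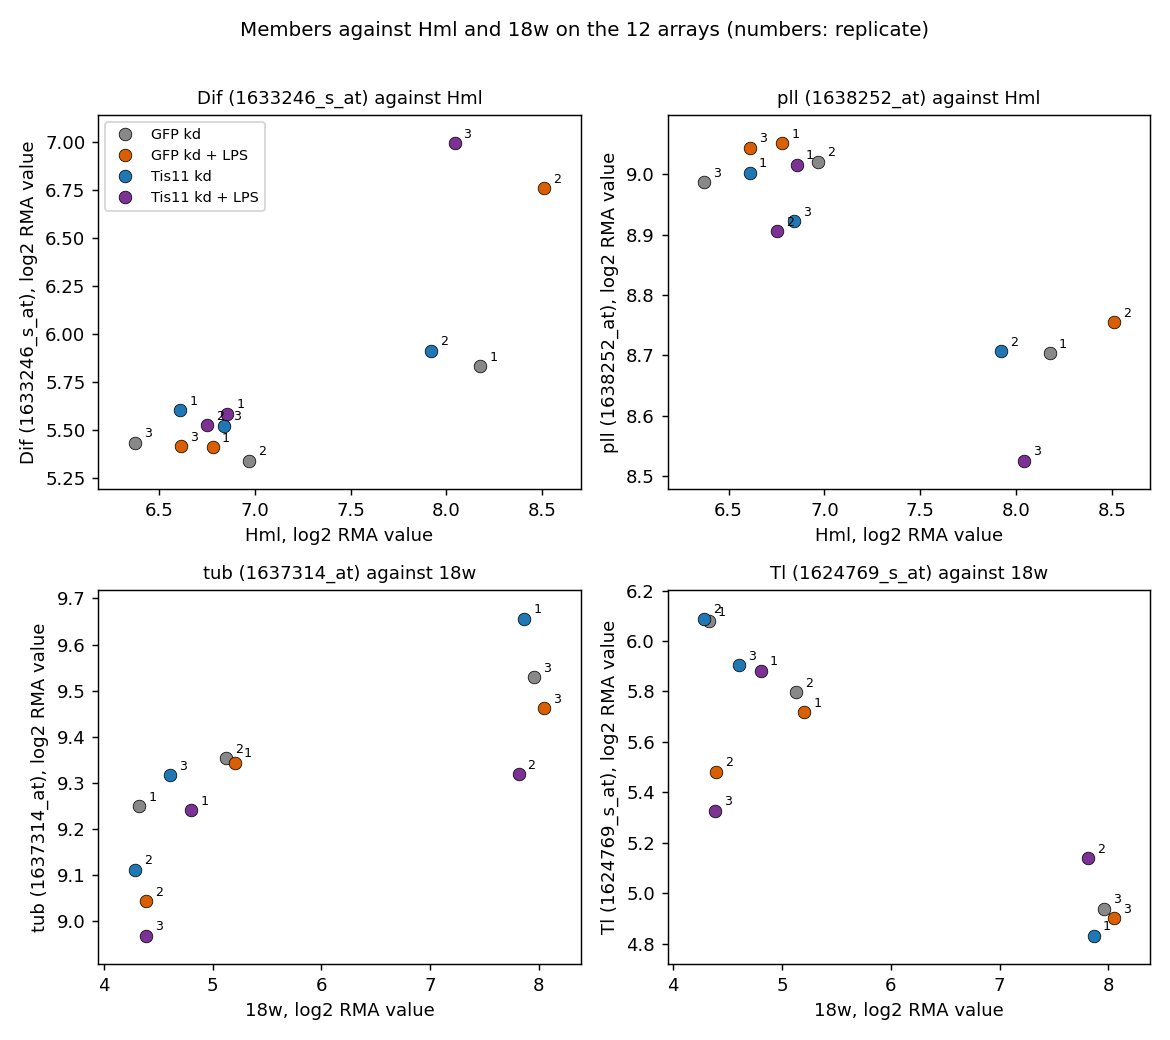
Log2 RMA values of 4 member probe sets against Hml (upper panels) or 18w (lower panels) on the 12 arrays, coloured by group and numbered by replicate. In each panel 4 arrays, 1 of each group, stand apart along the horizontal axis, from 7.92 to 8.51 for Hml and from 7.81 to 8.05 for 18w.

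Over all 12 arrays, 9 of the 11 probe sets had a negative LPS difference, with a median of −0.14 beside −0.00 over all probe sets tested and a range from −0.48 (spz) to 0.34 (Dif). For Tis11 kd over both LPS states, 6 were above 0 and 5 below, with a median of 0.04 beside 0.01 and a range from −0.34 (dl) to 0.16 (Dif). For Tis11 kd without LPS 8 were above 0 (median 0.14, all probe sets −0.00), and with LPS 3 were (median −0.05, all probe sets 0.02). For LPS in GFP kd cells 6 were above 0 (median 0.02, all probe sets −0.02), and in Tis11 kd cells 2 were (median −0.25, all probe sets 0.01). With the values quantile normalized again, 5 were above 0 for Tis11 kd with LPS and 4 for LPS in GFP kd cells, and with each array centred on its median 9 were for Tis11 kd without LPS and 1 for LPS in Tis11 kd cells. The 2 main differences on 12 arrays kept these numbers under both scalings. Of all probe sets tested, 49.4% were above 0 for LPS and 55.3% for Tis11 kd on 12 arrays. For Tis11 kd without and with LPS the shares were 49.4% and 55.3%. For LPS in GFP kd and Tis11 kd cells they were 43.3% and 53.7%. Tl, cact and dl enter with 2 probe sets each, so the probe sets are not independent counts. These comparisons share groups of arrays with each other.

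**Figure D3:**
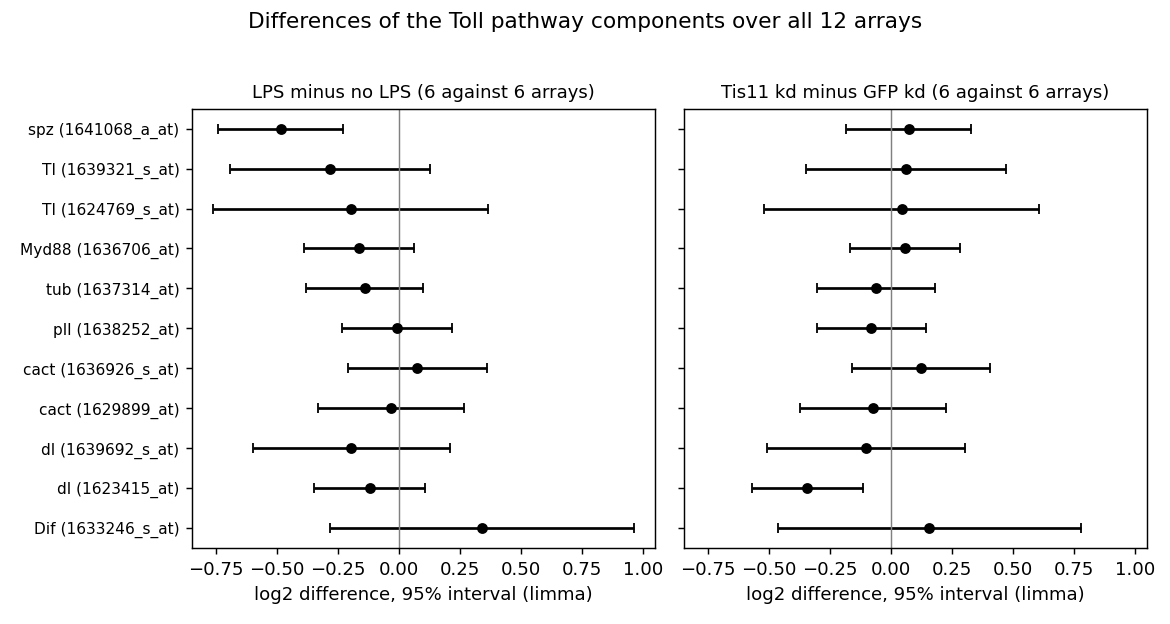
Log2 differences of the 11 probe sets on all 12 arrays, with 95% intervals from limma, for LPS (left) and Tis11 kd (right), each 6 arrays against 6. The interval leaves out 0 for spz on the left (−0.74 to −0.23) and for dl probe set 1623415_at on the right (−0.57 to −0.12), and no difference passed after adjustment over all probe sets.

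Around these components, no gene of the cascade upstream, of the other regulators or of the related receptors and ligands passed for LPS over both dsRNAs, while among the targets 1 did. Of 10 listed genes of the recognition and protease cascade upstream of spz, 7 were measured, 2 of them with a mean of at least 6, and 0 passed in any of the 7 comparisons. The largest differences were 0.49 (SE 0.16) for GNBP3, a receptor for fungal glucans, and −0.37 (SE 0.17) for the protease gene grass. psh, Hayan, SPE, spirit and nec, which encode other proteases and a serpin of the cascade, were all below 6. Of 11 other intracellular regulators, 9 were measured, all of them above 6, and 0 passed, with a median of 0.05. Pli, the fly Pellino, was at 0.43 (SE 0.22) and Gprk2, a kinase that acts on the pathway, at 0.43 (SE 0.28). Of 7 other Toll family receptors, 5 were measured and 0 passed, with Toll-7 at −0.16 (SE 0.13) and 18w at 0.08 (SE 0.91). Only Tollo of these had a mean above 6, at 8.37. Of the 5 other spz family ligands, spz4 alone was above 6, and differences ran from −0.05 to 0.10, with spz3 at 0.10 and spz5 at 0.06.

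Among targets of Toll signalling, 9 of 17 listed genes were measured and 1 passed, higher with LPS. Mtk, which encodes the antifungal peptide metchnikowin and also answers to the Imd pathway, was at 4.81, 4.79 and 4.20 after GFP kd and at 9.59, 10.13 and 9.49 with LPS. In Tis11 kd cells it was at 4.43, 4.82 and 4.68 and at 9.44, 9.80 and 10.28. It rose by 5.17 on the log2 scale over both dsRNAs (SE 0.17, adjusted p = 2.1e-08 from limma). Drs, the antifungal peptide drosomycin and the usual readout of Toll in the fat body, was at 5.43, 5.20 and 5.43 after GFP kd and at 5.83, 6.49 and 6.29 with LPS. In Tis11 kd cells Drs was at 5.20, 5.33 and 5.22 and at 5.59, 6.28 and 7.08. All 6 LPS values of Drs lay above the other 6, but its mean over the 12 arrays was 5.78, below 6. Its difference of 0.96 (SE 0.21) did not pass (adjusted p = 0.18 from limma). With 1 array left out it passed in 1 of 12 fits, without Tis11 dsRNA + LPS replicate 1 (1.11, adjusted p = 0.042 in limma). The adjusted p of these fits went up to 0.50. Under the 4 other alternatives run for Drs it passed in 0, with adjusted p from 0.17 to 0.23 in limma. The 7 measured Bomanin genes, short secreted peptides induced through Toll, were all below 6, with means from 3.32 to 5.01 and differences from −0.15 to 0.07.

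The Imd pathway offered a comparison on the same arrays. Of 14 listed signalling genes, 11 were measured, all with a mean of at least 6, and 1 passed for LPS over both dsRNAs. Rel was at 10.20, 10.03 and 9.89 after GFP kd and at 11.65, 10.85 and 11.80 with LPS, and at 10.10, 10.17 and 10.09 after Tis11 kd and 11.92, 11.84 and 10.68 with LPS. It rose by 1.38 (SE 0.21, adjusted p = 0.022 from limma), and its lower LPS values, 10.85 and 10.68, came from the same arrays as the high Dif values. With 1 array left out it was 1.28 to 1.56, with adjusted p in limma from 0.00095 to 0.085, and it passed only when 1 of those arrays was the one left out. key, the regulatory subunit of the IκB kinase, was at 0.44 (SE 0.17) and did not pass. The median of the 11 genes was 0.08, against −0.15 for the 8 measured Toll pathway components. The difference between both pathways was not tested. Of 14 antimicrobial peptide genes, 6 were measured and 4 rose with LPS, by 6.76 for AttD, 5.17 for Mtk, 3.95 for DptB and 3.48 for CecB (adjusted p from 2.1e-08 to 4.9e-04 in limma). For Tis11 kd over both LPS states 0 genes of any of these lists passed.

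**Figure D4:**
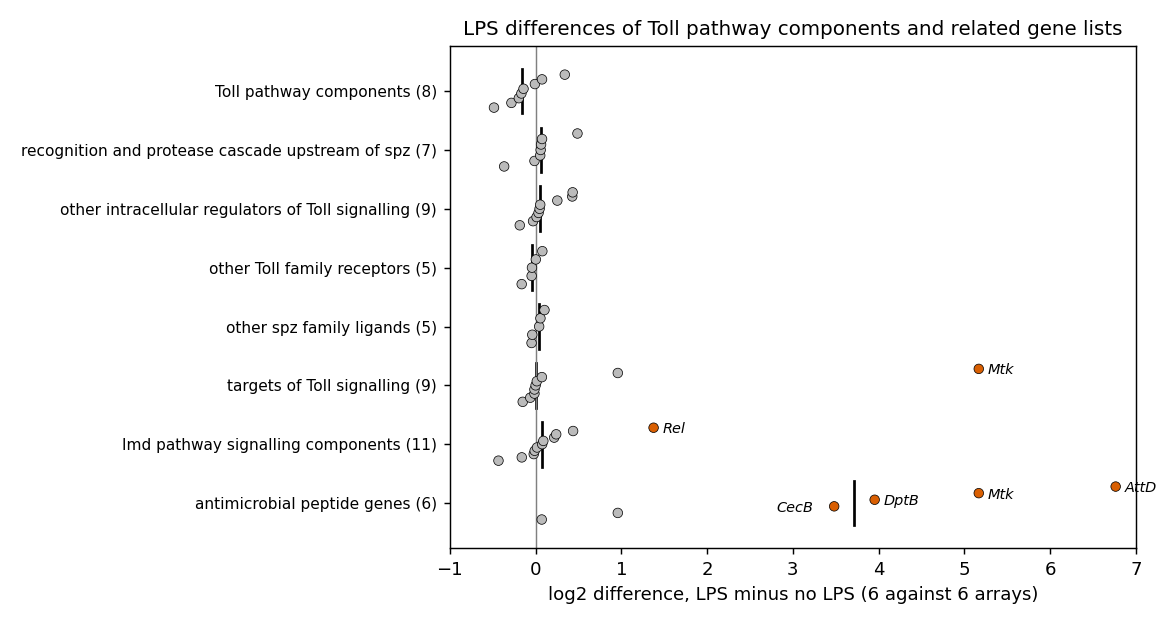
Log2 difference with LPS over both dsRNAs (6 arrays against 6) for the Toll pathway components and related lists, with the number of measured genes in brackets, 1 probe set per gene. Each point is a gene, orange where limma's adjusted p was under 0.05, and the bar is the median of the list. The Toll pathway components lie between −0.48 and 0.34, while Mtk, Rel and 3 other antimicrobial peptide genes stand to the right.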

How the data were processed

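Total RNA of 12 SL2 cultures was hybridized to Affymetrix Drosophila Genome 2.0 arrays. The deposited log2 values were made by the authors with RMA in RMAExpress. Their normalization as a single set of 12 is not given in the sources used here. No further normalization was applied. Groups and replicate numbers come from the labels. All p-values rest on the variation among 3 biological repeats a group. Of 18952 probe sets, 183 controls were left out. Of the other probe sets, 13646 had 1 gene in the platform annotation, 402 had several and 4721 none. In the lists, the probe set with the highest mean stood for its gene.

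The tests were run with lmFit and eBayes of limma (version 3.58.1, R 4.3.3). Each of 4 comparisons of 3 arrays against 3 was fitted on its own 6 arrays. An interaction model and an additive model (LPS and Tis11 kd) used all 12 arrays. Benjamini-Hochberg adjustment covered all 18769 probe sets, with a threshold of 0.05, and intervals are at 95%. With 3 arrays a group, the lowest p of an exact permutation test is 0.1. The scripts were tested on simulated data with independent noise and 200 of the 18769 probe sets changed. A change of 0.5 was recovered in 0% of these in each comparison of 3 arrays against 3 and in the interaction. On all 12 arrays it was recovered in 42% for LPS and 57.5% for Tis11 kd. The variation shared between arrays was not simulated. The members and the 13 lists (111 genes) were chosen with earlier results of these data known. Every member probe set was named, and of each related list the genes that passed and the 2 with the largest LPS difference over both dsRNAs. Other genes, Hml and 18w among them, were named after their values were seen. The alternatives were a block for the replicate number, a filter on low values, other scalings, an intensity trend, the methods' t-test, 1 fit of all groups and leaving out each array. For the named targets and Rel they were added after seeing the data. Plots were made in matplotlib 3.10.9 (Python 3.11.15).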

Additional observations from a re-analysis of the deposited data

How the results depend on the processing

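No member probe set passed in any of the 1119 differences recomputed under the alternatives, where the lowest adjusted p was 0.25 (spz, LPS over both dsRNAs, without Tis11 dsRNA replicate 2). The sign turned in 92 of them, with values of at most 0.45 in size. With 1 array left out, the LPS difference over both dsRNAs ran from −0.058 to 0.063 for pll and from −0.11 to 0.049 for cact 1629899_at. For Tis11 kd over both LPS states it ran from −0.057 to 0.36 for Dif, −0.0049 to 0.12 for Myd88, −0.10 to 0.22 for Tl 1624769_s_at, −0.062 to 0.17 for Tl 1639321_s_at, −0.15 to 0.0091 for cact 1629899_at and −0.22 to 0.066 for dl 1639692_s_at. For Tis11 kd with LPS it ran from −0.18 to 0.029 for spz and −0.64 to 0.011 for dl 1639692_s_at. The LPS difference of Dif ran from −0.12 to 0.55 in GFP kd and −0.12 to 0.61 in Tis11 kd cells. The difference between LPS responses ran from −0.23 to 0.10 for cact 1636926_s_at. The replicate numbers did not pair the arrays, since only 4 of 18 same-number pairs correlated over 0.1 in their deviations from the group means and 2 of 12 arrays correlated best with one of their own number. No pairing across numbers was fitted, since only the data, not the labels, would give it. The replicate block gave 0 members, with adjusted p of 0.46 or higher, and lowered the count of all probe sets that rose with LPS in Tis11 kd cells from 15 to 4. It changed no other count by over 1.5 times, and Rel then had an adjusted p of 0.054 in limma. For LPS, 0 probe sets were higher and 1 lower in GFP kd cells by the methods' t-test, and 0 were higher in Tis11 kd cells. With 1 array left out, the higher counts ran from 0 (without GFP dsRNA replicate 2) to 14 in GFP kd and from 6 (without Tis11 dsRNA replicate 1, or 3) to 26 (without Tis11 dsRNA + LPS replicate 3) in Tis11 kd cells. The lower count for LPS over both dsRNAs ran from 0 to 1 (without replicate 1 of either LPS group). For Tis11 kd over both LPS states, 1 probe set passed as lower with the filter on low values, with an intensity trend, with quantile normalization (1 higher too), or without Tis11 dsRNA replicate 2 or Tis11 dsRNA + LPS replicate 2, for a range of 0 to 1 with 1 array left out. The cause was not tested. Mtk, AttD, DptB and CecB passed under every alternative run. The number of arrays limits the precision, and Dif and Tl 1624769_s_at lay near background.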
